A study of Mus musculus with 2 samples.

Results

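The mRNAs of 7 enzymes that break down or edit the cell's own nucleic acids or their building blocks were followed in leukocytes from mouse melanomas: Samhd1, Rnaseh2a, Rnaseh2b, Rnaseh2c, Adar, Dnase2a and Dnase1l3. They were chosen by symbol, as genes whose inherited loss gives interferon-driven disease as loss of TREX1 does. The rule uses no measured value, but earlier results of these data were known when the members were chosen. They are 7 of the 32432 genes in the files, and all 7 had UMIs, the molecule-tagged reads that were counted. TREX1 itself is a 3'-to-5' DNA exonuclease, and the design asks how the immune response after its induced knockout regulates tumour growth. All mice were male, 8 to 12 weeks old and carried the tamoxifen-activated recombinase CreERT2 at the Rosa26 locus (R26CreERT2-ki/wt), which is active in cells of all lineages. In Trex1 iKO mice both Trex1 alleles were floxed (Trex1 fl/fl), and in Trex1 control mice 1 allele was floxed and the other wild type (Trex1 wt/fl), so the controls also carried Cre and could lose 1 allele. Both groups had 1000 B16-F10 melanoma cells in Matrigel put into the skin of each leg on day 0, and 1 mg tamoxifen by intraperitoneal injection on 3 days from day 5. The tumour cells are an established line without these alleles. Tumours were taken on day 14, and live CD45+ cells were enriched on beads, sorted and run on the 10x 3' platform, 4 hashtagged samples per genotype in 1 pool per genotype.

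Since each genotype was run as its own pool, a genotype difference and a pool difference cannot be told apart anywhere in these data. The labels do not say whether a hashtagged sample is 1 mouse, so p-values measure only the spread between these samples. The 8 samples held 17111065 to 96457227 UMIs, and kept cells had median counts of 12994.5 to 14490.5 UMIs in the iKO samples and 6406 to 11834.5 in the control samples. No barcode was shared within a pool, and pairs of matrices from different pools shared 0 to 6. Clusters were named into 11 leukocyte classes from marker genes, and 4 of 32 clusters stayed unnamed. Trex1 had 2 UMIs in all, both in 1 cell of control sample 2. In the GENCODE annotation, 100% of its last 300 bases lie in exons of Atrip on the same strand, so the deletion could not be checked from these counts. The genotypes are therefore those of the labels.

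Mammalian cells keep their own DNA and RNA from looking like a virus by several separate enzymes. SAMHD1 hydrolyses deoxynucleoside triphosphates and so sets the dNTP pool of resting cells. RNase H2, made of the catalytic subunit RNASEH2A and the partners RNASEH2B and RNASEH2C, cuts ribonucleotides out of DNA and degrades the RNA of RNA:DNA hybrids. ADAR deaminates adenosines in double-stranded RNA, and its long isoform comes from an interferon-inducible promoter. DNase II (Dnase2a) digests engulfed DNA in lysosomes, above all in macrophages, and DNASE1L3 is a secreted DNase of dendritic cells and macrophages that cuts DNA in chromatin outside the cell. Where one of these enzymes fails, DNA sensing through cGAS and STING, or RNA sensing through MDA5, can switch on type I interferon.

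Promoter windows are shown for 3 of the enzymes, because 2 of them, Samhd1 and Adar, were the members called by genotype below and the other, Rnaseh2a, holds a motif in common with both and was not called. Each window is 300 bases of RefSeq sequence (build GRCm38.p6, not the build of the files), from 250 bases before to 50 bases after a transcript start, written 5' to 3' on the gene's strand. Capitals mark matches, on either strand, to TTCNNNGAA, the core of the gamma-activated site bound by STAT proteins, and to the repeat GAAANNGAA, which resembles part of the interferon-stimulated response element and was added after the windows had been seen.
Samhd1, chr2:157135047-157135346, minus strand: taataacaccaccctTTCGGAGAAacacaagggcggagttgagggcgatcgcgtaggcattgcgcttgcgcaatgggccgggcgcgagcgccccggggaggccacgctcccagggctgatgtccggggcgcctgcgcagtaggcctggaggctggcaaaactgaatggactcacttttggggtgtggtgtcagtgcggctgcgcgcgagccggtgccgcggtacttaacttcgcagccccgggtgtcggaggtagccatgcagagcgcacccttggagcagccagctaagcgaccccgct
Adar, window 3 of 3, chr3:89730468-89730767, plus strand: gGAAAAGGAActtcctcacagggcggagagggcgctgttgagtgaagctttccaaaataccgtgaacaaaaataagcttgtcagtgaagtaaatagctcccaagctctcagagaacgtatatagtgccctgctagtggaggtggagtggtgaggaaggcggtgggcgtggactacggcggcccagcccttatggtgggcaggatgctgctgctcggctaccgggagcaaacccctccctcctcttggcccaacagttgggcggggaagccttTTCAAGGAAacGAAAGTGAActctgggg
Rnaseh2a, chr8:84966027-84966326, minus strand: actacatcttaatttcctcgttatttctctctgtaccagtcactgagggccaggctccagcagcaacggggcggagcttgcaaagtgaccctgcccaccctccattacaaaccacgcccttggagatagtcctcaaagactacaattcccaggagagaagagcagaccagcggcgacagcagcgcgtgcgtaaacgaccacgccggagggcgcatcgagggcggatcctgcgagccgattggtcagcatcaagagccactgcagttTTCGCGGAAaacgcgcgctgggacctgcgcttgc
The Samhd1 match to TTCNNNGAA begins 235 bases before the start, that of Adar 22 bases after it and that of Rnaseh2a 16 bases after it. GAAANNGAA lay in Adar window 3 at 249 bases before and 33 bases after the start, and in no other window of the set. No match overlapped another. TTCNNNGAA is in 8.3% of all 32851 RefSeq windows of this length and GAAANNGAA in 8.56%. The core AAANNGAAA, the form fixed for the interferon-stimulated response element, is in 10.6% of windows and in none of the 7 windows of the 5 enzymes found in the table (Samhd1, Rnaseh2a, Rnaseh2c, Adar and Dnase2a). A match is a description of letters and shows no binding.

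All 7 transcripts were detected, to unlike extents. In the files they are Samhd1 (ENSMUSG00000027639), Rnaseh2a (ENSMUSG00000052926), Rnaseh2b (ENSMUSG00000021932), Rnaseh2c (ENSMUSG00000024925), Adar (ENSMUSG00000027951), Dnase2a (ENSMUSG00000003812) and Dnase1l3 (ENSMUSG00000025279). A Samhd1 UMI was found in 82.5% of the 22051 kept cells (157841 UMIs over all barcodes), one of Rnaseh2c in 53.8% (29701), of Adar in 33.6% (11444), of Dnase2a in 31.9% (12514), of Rnaseh2b in 22.8% (8886), of Rnaseh2a in 19.9% (6160) and of Dnase1l3 in 5.00% (3805). Dnase1l3 was thus the sparsest and, as shown next, the one most restricted to a few classes of cells by level. Of the last 300 bases of each of the 7 transcripts 0% are shared with same-strand exons of other genes, while on the opposite strand the ends of Rnaseh2c and Adar overlap Kat5 and Chrnb2. Reads from transcript ends do not separate the isoforms of Adar.

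The first question was where each enzyme is expressed. Levels are CPM (UMIs of the gene scaled by the total UMIs of the profile) over the summed cells of a class in each sample, given as mean ± SD over samples with at least 20 such cells, of both genotypes (n = 8 unless given). Fewer samples entered for cDC1-like (4 iKO and 2 control), pDC-like (4 iKO and 1 control) and NK-like cells (2 of each). Classes were compared within samples by an exact sign-flip permutation test of log2(CPM + 10), adjusted over 252 comparisons (7 genes, 36 pairs of 9 classes), of which 98 (38.9%) passed 0.05. With 8 shared samples the smallest p of this test is 0.0078. Pairs with cDC1-like cells share 6 samples, where the smallest p is 0.031. That value adjusted to 0.057, so these pairs, counted in the 252, could not pass and say nothing of a difference. Each of the 98 differences had the same direction in the iKO samples alone and in the control samples alone.

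Samhd1 was lowest by mean in CD8 T-like cells, which were not tested against NK-like or pDC-like cells. Its level was 649 ± 324 CPM in monocyte/macrophage-like, 500 ± 200 in neutrophil-like, 473 ± 227 in cDC2-like, 473 ± 136 in mature DC-like, 403 ± 45.8 in B-like, 391 ± 141 in CD4 T-like, 390 ± 151 in Treg-like, 369 ± 174 in cDC1-like (n = 6), 205 ± 114 in pDC-like (n = 5), 175 ± 52.6 in NK-like (n = 4) and 140 ± 56.4 CPM in CD8 T-like cells. CD8 T-like cells were below B-like, CD4 T-like, Treg-like, neutrophil-like, mature DC-like, cDC2-like and monocyte/macrophage-like cells in all 8 samples, by 1.39 to 2.06 on the log2(CPM + 10) scale (exact permutation test, adjusted p = 0.023 each). Monocyte/macrophage-like cells also lay above Treg-like cells by 0.67 (8 of 8 samples, adjusted p = 0.023), above CD4 T-like cells by 0.63 and above cDC2-like cells by 0.42 (7 of 8 samples each, adjusted p = 0.040). No 2 neighbours in this order that could be compared differed past the threshold. After thinning every cell to 3000 UMIs, 73.2% of monocyte/macrophage-like cells (95% interval 72.2% to 74.1%) and 36.2% of CD8 T-like cells (34.8% to 37.5%) held a Samhd1 UMI. Unthinned, the shares were 92.4% and 78.9%, at median depths of 14508 and 14704 UMIs, and the thinning left out 273 and 144 shallower cells.

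The 3 subunits of RNase H2 did not share 1 order of classes. Rnaseh2a, the catalytic subunit, was at 24.9 ± 1.94 CPM in CD8 T-like and 21.9 ± 5.13 in Treg-like cells, 20.8 ± 4.75 in cDC2-like, 20.3 ± 11.5 in cDC1-like (n = 6) and 19.3 ± 2.15 in monocyte/macrophage-like cells, against 10.9 ± 2.72 in mature DC-like and 4.77 ± 2.43 in neutrophil-like cells. Rnaseh2b was at 51.5 ± 12.4 CPM in mature DC-like, 47.4 ± 5.08 in CD8 T-like and 42.5 ± 9.93 in Treg-like cells, against 18.8 ± 3.24 in cDC2-like, 17.2 ± 2.83 in monocyte/macrophage-like, 16.7 ± 5.91 in CD4 T-like, 9.72 ± 4.99 in B-like and 5.25 ± 2.44 in neutrophil-like cells. Rnaseh2c was at 135 ± 19.5 CPM in CD8 T-like, 126 ± 26.8 in NK-like (n = 4) and 126 ± 22.6 in Treg-like cells, against 45.5 ± 11.1 in neutrophil-like and 43.4 ± 9.03 in mature DC-like cells. Neutrophil-like cells were thus last for Rnaseh2a and Rnaseh2b and near last for Rnaseh2c, while mature DC-like cells were first for Rnaseh2b and last for Rnaseh2c. Mature DC-like cells exceeded cDC2-like cells in Rnaseh2b by 1.08 and lay below them in Rnaseh2c by 0.61 and in Rnaseh2a by 0.55 on the log2(CPM + 10) scale (8 of 8 samples and adjusted p = 0.023 in each exact permutation test). Between mature DC-like and CD8 T-like cells the difference in Rnaseh2b was within the spread (0.08, adjusted p = 0.388). In the remaining classes Rnaseh2a ranged from 12.5 to 15.8 CPM, Rnaseh2b from 13.1 to 24.9 and Rnaseh2c from 47.1 to 100.1. Of 36 pairs of classes, 13 passed for Rnaseh2a, 20 for Rnaseh2b and 19 for Rnaseh2c.

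Adar differed least between classes by this count, with 3 of 36 pairs past the threshold. Its mean level lay between 24.2 ± 5.53 CPM in CD8 T-like and 45.3 ± 12.3 in pDC-like cells (n = 5), with 43.1 ± 18.7 in B-like, 38.6 ± 9.95 in neutrophil-like and 37.7 ± 17.2 in monocyte/macrophage-like cells. The pDC-like mean is of 4 iKO samples and 1 control sample, and pDC-like cells were first in neither genotype. Within iKO they were at 48.3 CPM, against 51.7 in monocyte/macrophage-like and 49.8 in B-like cells. The 1 control sample was at 33.4 CPM, against a B-like control mean of 36.4. Adar was higher in neutrophil-like than in CD8 T-like cells by 0.50 and than in cDC2-like cells by 0.31, and higher in monocyte/macrophage-like than in CD8 T-like cells by 0.41 on the log2(CPM + 10) scale (8 of 8 samples, adjusted p = 0.023 in each exact permutation test). The spread between samples of 1 class, which includes the genotypes, was as large as most of these steps.

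By mean, Dnase2a was highest in monocyte/macrophage-like and B-like cells and Dnase1l3 in the dendritic classes. Dnase2a was at 62.1 ± 9.87 CPM in monocyte/macrophage-like and 54.8 ± 17.5 in B-like cells, 34.5 ± 8.82 in pDC-like (n = 5), 34.4 ± 4.86 in cDC2-like and 27.8 ± 5.32 in cDC1-like cells (n = 6). It was at 24.1 ± 7.90 in neutrophil-like, 23.3 ± 6.18 in Treg-like, 19.3 ± 4.70 in CD4 T-like, 17.3 ± 3.07 in mature DC-like, 12.3 ± 2.40 in CD8 T-like and 9.74 ± 0.376 CPM in NK-like cells (n = 4). Monocyte/macrophage-like cells were above CD8 T-like cells by 1.69 and above cDC2-like cells by 0.69 (8 of 8 samples, exact permutation test, adjusted p = 0.023), but not distinguishable from B-like cells (0.21, adjusted p = 0.384). Dnase1l3 was at 74.4 ± 26.5 CPM in cDC1-like (n = 6), 58.0 ± 34.1 in pDC-like (n = 5), 56.7 ± 36.9 in mature DC-like and 34.7 ± 37.2 in cDC2-like cells. It was at 9.32 ± 9.66 in monocyte/macrophage-like, 4.28 ± 5.83 in B-like and 3.08 ± 2.65 CPM in neutrophil-like cells. Its mean was 0.747 CPM in CD8 T-like, 1.22 in CD4 T-like and 0.451 CPM in Treg-like cells. Mature DC-like cells exceeded cDC2-like cells by 0.72 (7 of 8 samples, adjusted p = 0.040), and cDC2-like cells exceeded monocyte/macrophage-like cells by 0.98 (8 of 8 samples, adjusted p = 0.023, exact permutation tests). In NK-like cells there were 0 Dnase1l3 UMIs in 255 cells at a median of 6380 UMIs, which allows up to 1.18% of cells with a UMI. A Dnase1l3 UMI was found in 21.8% of mature DC-like cells and 0.931% of CD8 T-like cells, at median depths of 14687 and 14704 UMIs. The part of free RNA in these shares was not tested.

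**Figure D1:**
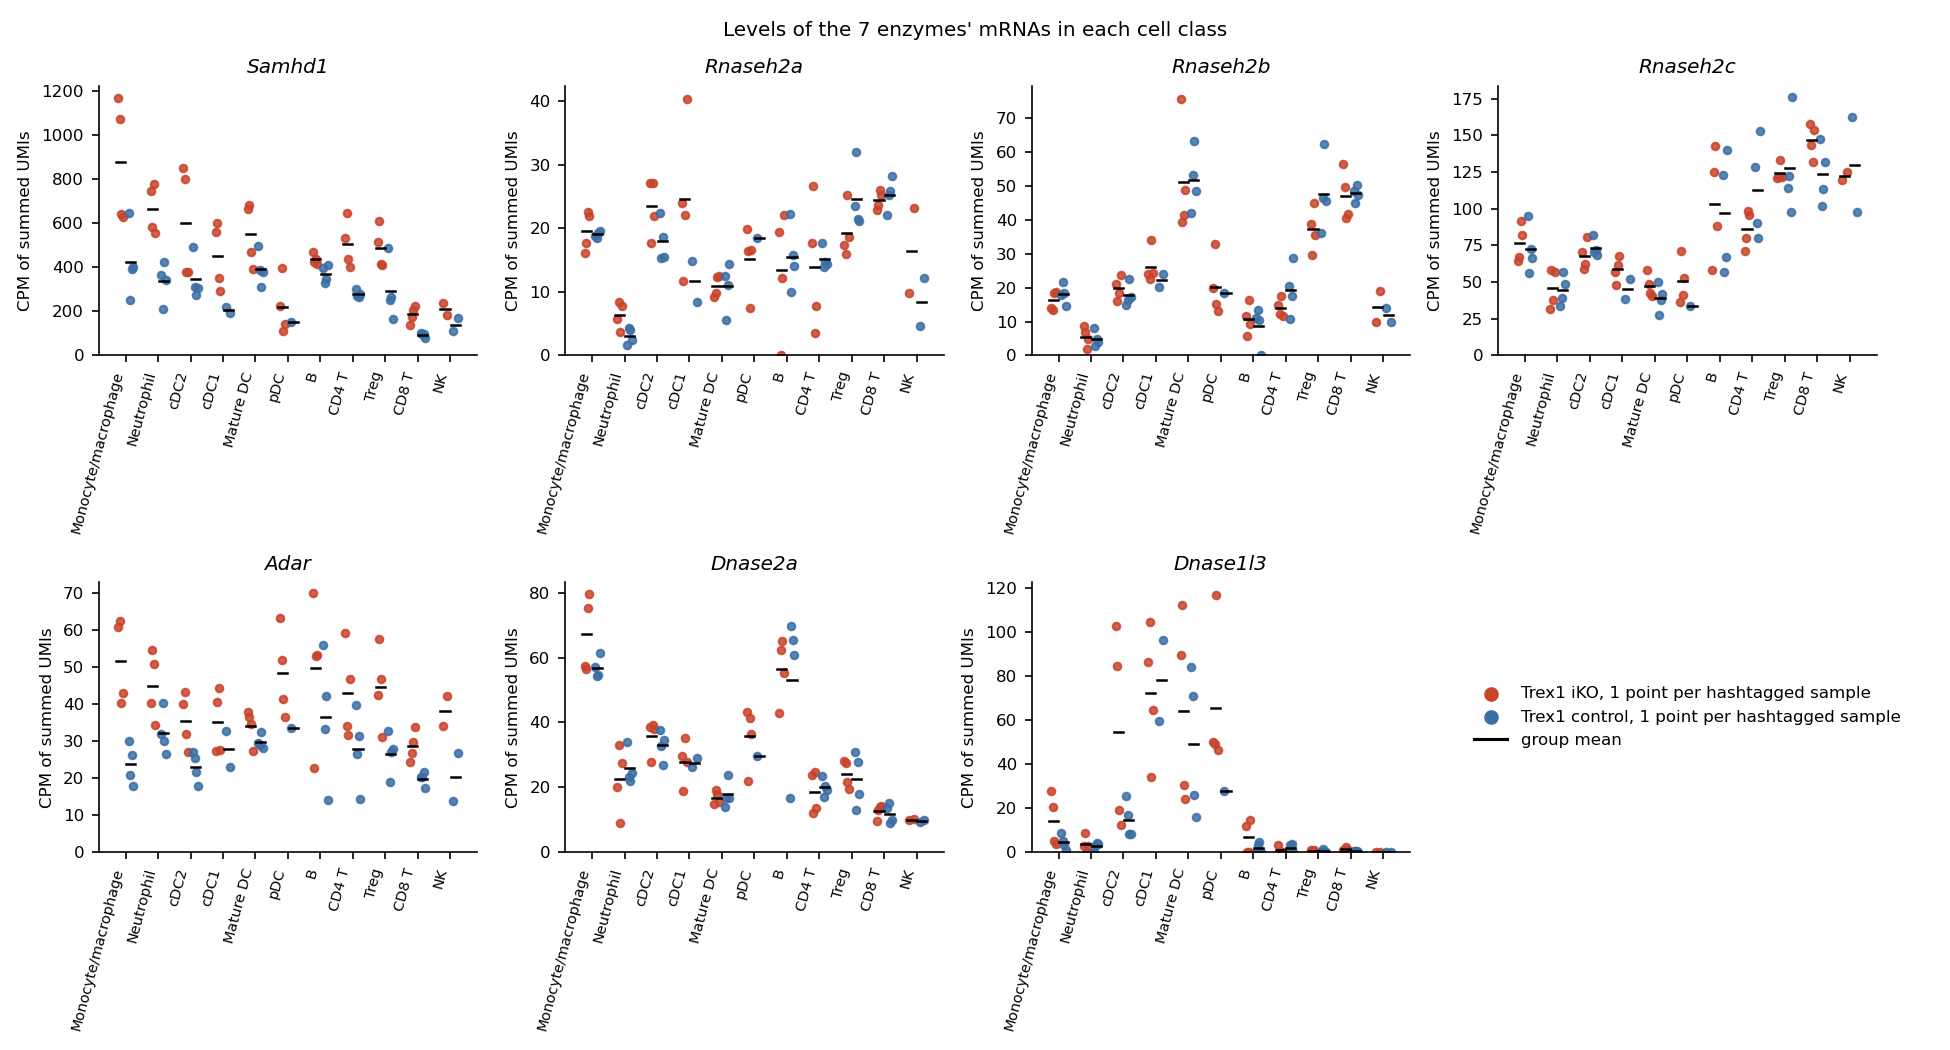
Levels of the 7 enzymes' mRNAs in each cell class, as CPM of summed UMIs (y axes from 0), with 1 point per hashtagged sample and class and a line at each group mean. By mean over both genotypes, Samhd1 is lowest in CD8 T-like cells, Dnase2a highest in monocyte/macrophage-like and B-like cells, and Dnase1l3 highest in the dendritic classes.

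The second question was whether the enzymes differ between the genotypes. Genotype values are CPM with TMM library scaling, tested with edgeR's quasi-likelihood test with Benjamini-Hochberg adjustment over all genes of a profile. Over all kept cells of a sample 2.59% of the 13460 genes tested were called, 1.72% in the direction of a higher level in iKO. Of the 7 enzymes, all tested, 2 were called higher (Samhd1 and Adar) and 0 lower, the median log2 fold change was 0.30 against -0.01 over all genes, and in 3 (Samhd1, Adar and Rnaseh2a) every iKO sample lay above every control sample, as in 7.04% of all genes tested. A whole-sample level mixes the level within cells with the share of each class. Within classes, where 8 classes had enough samples, the tests of members that passed the low-count filter numbered 44, of which 4 were called, each higher in iKO, and DESeq2 called 5 of 42. Over all genes, edgeR called from 0.127% (mature DC-like) to 9.1% (monocyte/macrophage-like) in these classes. DESeq2 called from 85 of 8229 genes (B-like) to 1863 of 12427 (monocyte/macrophage-like). The members that passed this filter are not all members in every class. Those left out were Rnaseh2a, Rnaseh2b and Dnase1l3 in B-like, CD4 T-like and neutrophil-like cells, Dnase2a in CD4 T-like cells and Dnase1l3 in CD8 T-like and Treg-like cells.

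**Figure D2:**
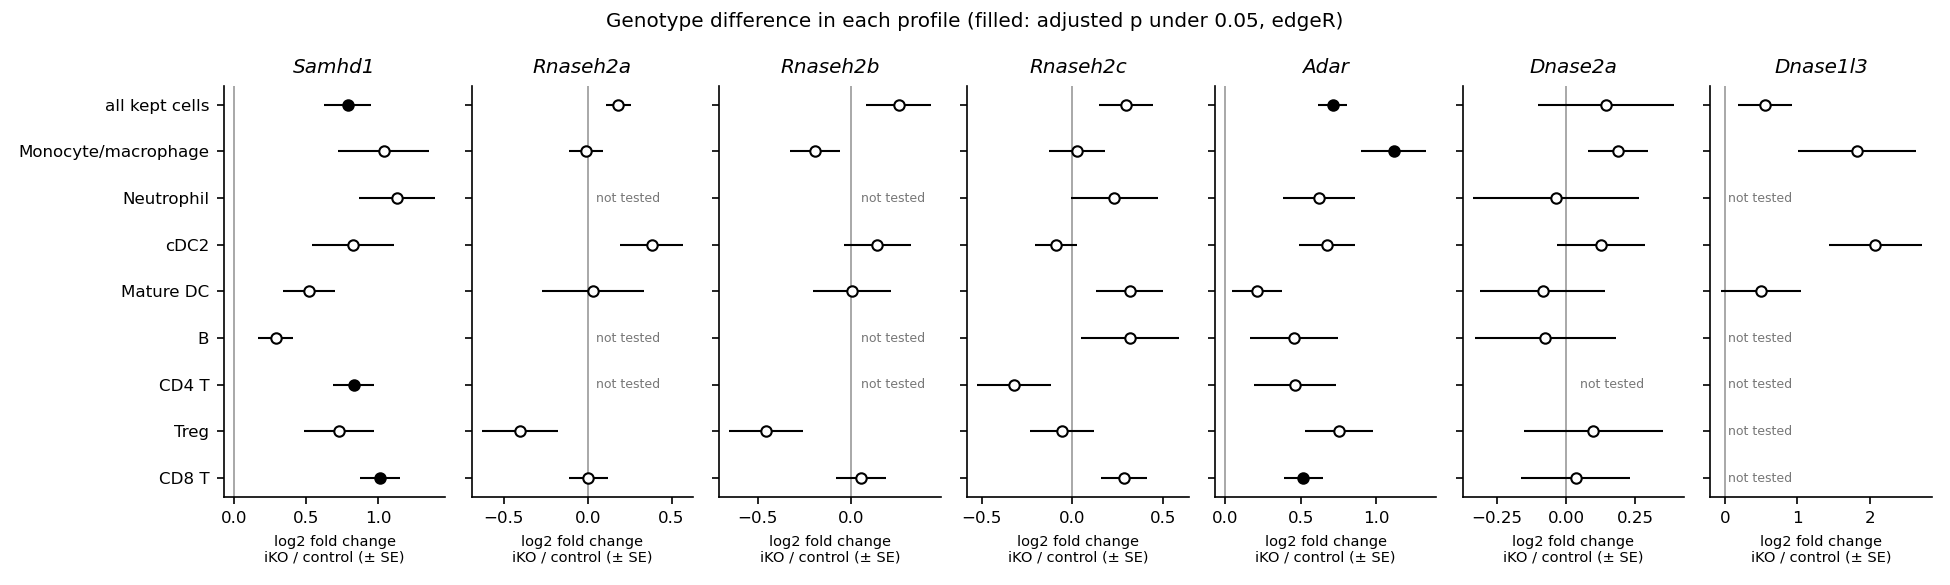
Log2 fold change of each enzyme, iKO over control, with its SE (x axes), in whole samples and in each of the 8 classes tested (rows). Filled points passed an adjusted p of 0.05 in edgeR, and open points did not: Samhd1 is filled in whole samples, CD4 T-like and CD8 T-like profiles and Adar in whole samples, monocyte/macrophage-like and CD8 T-like profiles.

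Samhd1, the dNTP hydrolase, was higher in iKO in every profile tested and past the threshold in 3 of 9. In whole samples control samples 1 to 4 were at 382.9, 239.4, 291.4 and 384.3 CPM and iKO samples 1 to 4 at 642.9, 550.5, 518.8 and 527.5. The 4 iKO samples lay above every control sample. The log2 fold change was 0.79 ± 0.16 (SE, n = 4 per group, edgeR adjusted p = 0.0445). This call rested on all the samples together, since leaving out any 1 of 7 samples (each except control sample 4) took the adjusted p to between 0.0532 and 0.144.

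In CD4 T-like cells, where 3 members were tested and 3.02% of all genes were called (1.99% higher), Samhd1 was the member called. Control samples 1 to 4 were at 319.1, 290.1, 280.6 and 291.2 CPM and iKO samples 1 to 4 at 559.8, 669.6, 447.7 and 420.1. The groups were far apart relative to the spread within the controls. Its log2 fold change was 0.83 ± 0.14 (edgeR adjusted p = 0.000945), and the call held without any 1 sample (adjusted p at most 0.00833).

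The class with the lowest mean Samhd1, CD8 T-like cells, showed a step of similar size. Its level there rose from 92.7 ± 9.35 to 190.2 ± 35.1 CPM (SD, n = 4 each). Control samples 1 to 4 were at 100.2, 95.9, 95.5 and 79.0 CPM and iKO samples 1 to 4 at 145.2, 181.9, 206.5 and 226.9. Every iKO sample was above every control sample. The log2 fold change was 1.01 ± 0.14 (edgeR adjusted p = 0.00204), 2 of the 6 members tested were called in this class (Samhd1 and Adar), against 5.56% of all genes (3.22% higher), and the Samhd1 call held without any 1 sample (adjusted p at most 0.0110). It was lost when clusters were drawn at resolution 1 (log2 fold change 0.50, adjusted p = 0.132). With cells pooled over samples, different clusters held most CD8 T-like cells in each genotype. In iKO they were clusters 0 (led by Cxcr6, Cd8b1 and Cd8a, 33.1%) and 2 (led by histone and mitotic genes such as Top2a, 25.0%). In control they were clusters 13 (led by Gzmk, Cxcr3 and Tcf7, 34.5%) and 7 (led by Gzmf, Gzmc and Prf1, 28.1%). Samples 1 to 4 gave 1226, 2448, 148 and 217 of these cells in iKO and 424, 204, 196 and 80 in control. The iKO shares are thus mainly those of samples 1 and 2. Within the 2 CD8 T-like clusters with at least 3 samples per genotype, the lowest iKO sample lay above the highest control sample for Samhd1, at 106.6 against 58.8 CPM in cluster 2 and 436.9 against 230.7 CPM in cluster 13 (means over samples). Cluster 13 was thus several times above cluster 2 in both genotypes.

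Samhd1 is abundant in macrophages, so their markers were read in the T cell, B-like and neutrophil-like profiles. The 13 monocyte/macrophage markers summed to 1255 to 1495 CPM in CD8 T-like cells of iKO and 677 to 728 CPM in control, and none was at 0. Ly6c2, which activated CD8 T cells also express, made up 899 to 1096 CPM of this in iKO and 194 to 342 CPM in control. The other 12, a sum formed after the values were seen, were at 274 to 473 CPM in iKO and 387 to 495 CPM in control, and Lyz2 stood at 1.24% to 1.38% of its monocyte/macrophage-like level in iKO and 1.21% to 2.32% in control. In CD4 T-like cells the 13 markers summed to 1041 to 1197 CPM in iKO and 1058 to 1158 CPM in control. The 12 markers without Ly6c2 stood highest in neutrophil-like cells, at 18.3% to 30.9% of their monocyte/macrophage-like level in iKO and 11.2% to 28.0% in control. Lyz2 alone made up 2777 of the mean 3865 CPM of this neutrophil-like sum in iKO and 2243 of 3611 CPM in control. In CD8 T-like cells the 12 markers stood at 1.89% to 2.50% and 1.75% to 2.81%, and in B-like cells at 5.40% to 6.92% and 4.76% to 8.33%. The part of monocyte/macrophage RNA in the T cell, B-like and neutrophil-like values was not tested. Nor was it tested whether neutrophil-like cells make Lyz2 themselves.

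In monocyte/macrophage-like and neutrophil-like cells the Samhd1 differences were also near 1 on the log2 scale, but did not pass. In monocyte/macrophage-like cells control samples 1 to 4 were at 649.9, 258.7, 381.0 and 420.2 CPM and iKO samples 1 to 4 at 1205.8, 1107.9, 601.6 and 595.7. Control sample 1 lay above iKO samples 3 and 4, so the groups overlapped. Its log2 fold change of 1.04 ± 0.32 did not pass (edgeR adjusted p = 0.0682), but did with the sample number as a block (0.0491, where 7.59% of genes were called), without iKO sample 3 (0.0485) and without control sample 1 (0.0291). It also passed in DESeq2 (0.0109), without cycling cells (edgeR adjusted p = 0.0334) and with cells thinned to 3000 UMIs (0.0360). In neutrophil-like cells control samples 1 to 4 were at 376.1, 200.5, 391.8 and 338.9 CPM and iKO samples 1 to 4 at 704.5, 560.1, 1021.7 and 586.8, with no overlap. The log2 fold change was 1.13 ± 0.26 (edgeR adjusted p = 0.0648, and 0.0131 with the block, where 1.84% of genes were called), and DESeq2 called it (0.00731). In cDC2-like, Treg-like and mature DC-like cells it was 0.82 ± 0.29, 0.73 ± 0.24 and 0.52 ± 0.18 (edgeR adjusted p = 0.138, 0.183 and 0.275), and with the block the first 2 passed (0.0236, with 5.3% of genes called, and 0.0358, with 2.01%). With thinned cells they passed too, at 0.98 and 0.59 (edgeR adjusted p = 0.0136 and 0.0314), and the cDC2-like difference did without cycling cells (0.0353). Without control sample 1 the Treg-like difference was 1.055 (adjusted p = 0.00654).

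B-like cells showed the smallest Samhd1 difference of the 9 profiles at resolution 2, but not at resolution 1, where theirs was 0.51 and that of CD8 T-like cells 0.50. Control samples 1 to 4 were at 439.8, 361.7, 381.4 and 455.4 CPM and iKO samples 1 to 4 at 518.9, 491.0, 488.4 and 475.1. The groups did not overlap, but the log2 fold change of 0.29 ± 0.12 did not pass (edgeR adjusted p = 0.258, where 3.21% of genes were called and 0 of 4 members, 1 of them at an unadjusted p under 0.05). The resolution 1 value passed (edgeR adjusted p = 0.0294). The difference between classes was tested itself: the B-like effect was smaller than the monocyte/macrophage-like one by 0.76 ± 0.21 on the log2 scale, which did not pass (adjusted p = 0.0729, where 0.819% of genes were called). It passed without the low-count filter (0.00517), without iKO sample 3 (0.0192), without iKO sample 4 (0.00825) and without control sample 1 (0.00337).

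Adar, the RNA editor, was called in whole samples and did not depend there on any 1 sample. Control samples 1 to 4 were at 26.9, 24.1, 26.3 and 20.98 CPM and iKO samples 1 to 4 at 42.1, 41.8, 38.1 and 38.8. The groups were separate and each narrow. Its log2 fold change was 0.71 ± 0.09 (edgeR adjusted p = 0.00826), with adjusted p from 0.0109 to 0.0367 when each sample was left out in turn.

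In monocyte/macrophage-like cells, where 9.1% of all genes were called (4.98% higher), Adar was the 1 of 7 members called. Control samples 1 to 4 were at 30.3, 21.2, 25.5 and 18.8 CPM and iKO samples 1 to 4 at 62.8, 64.7, 38.0 and 40.7. All iKO samples were above all control samples, with iKO samples 1 and 2 far above 3 and 4. The log2 fold change was 1.11 ± 0.22 (edgeR adjusted p = 0.0195). The call was lost without iKO sample 1 (0.0544), iKO sample 2 (0.0587), control sample 2 (0.0660) or control sample 4 (0.0598). With cells pooled over samples, clusters differed in share here too. Clusters 3 (19.1%), 11 (15.0%) and 6 (13.2%) were the largest of the class in iKO and clusters 1 (25.5%), 8 (20.6%) and 5 (18.9%) in control. Samples 1 to 4 gave 1762, 2050, 645 and 1289 of these cells in iKO and 537, 419, 600 and 1227 in control. Clusters 3 and 11 were led by interferon-response and chemokine genes such as Cxcl10 and Rsad2, and cluster 1 by Mmp12, the heat-shock genes Hspa1a and Hspa1b, and Arg1.

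In CD8 T-like cells the Adar call was marginal. Control samples 1 to 4 were at 20.2, 19.9, 21.3 and 17.3 CPM and iKO samples 1 to 4 at 25.2, 27.8, 29.5 and 33.8, without overlap. Its log2 fold change was 0.52 ± 0.13 (edgeR adjusted p = 0.0442). It was lost in 7 of the 8 fits without 1 sample (each except iKO sample 1, adjusted p 0.0612 to 0.113), with the replicate block (0.0661, where 7.01% of genes were called), at resolution 1 (0.0502) and in DESeq2 (0.0601). Without cycling cells the log2 fold change was 0.29 (adjusted p = 0.633) and with cells thinned to 3000 UMIs 0.28 (0.686). In iKO 88.1%, 81.8%, 60.1% and 55.8% of CD8 T-like cells of samples 1 to 4 were cycling, and in control 70.8%, 56.4%, 51.5% and 58.8%.

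In cDC2-like cells (2.98% of genes called) Adar was at 26.8, 25.4, 21.2 and 18.8 CPM in control samples 1 to 4 and 40.3, 43.9, 32.6 and 26.8 CPM in iKO samples 1 to 4. The groups did not overlap, but the highest control and the lowest iKO sample were nearly equal. The log2 fold change of 0.67 ± 0.19 did not pass (edgeR adjusted p = 0.0767), but did with the replicate block (0.0273), without iKO sample 4 (0.0227) and with cells thinned to 3000 UMIs, where it was 1.30 (0.0416). In the other 5 classes Adar was not called, with log2 fold changes from 0.21 ± 0.16 in mature DC-like cells (adjusted p = 0.695) to 0.75 ± 0.23 in Treg-like cells (0.134). Between these, B-like, CD4 T-like and neutrophil-like cells stood at 0.46, 0.46 and 0.62.

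**Figure D3:**
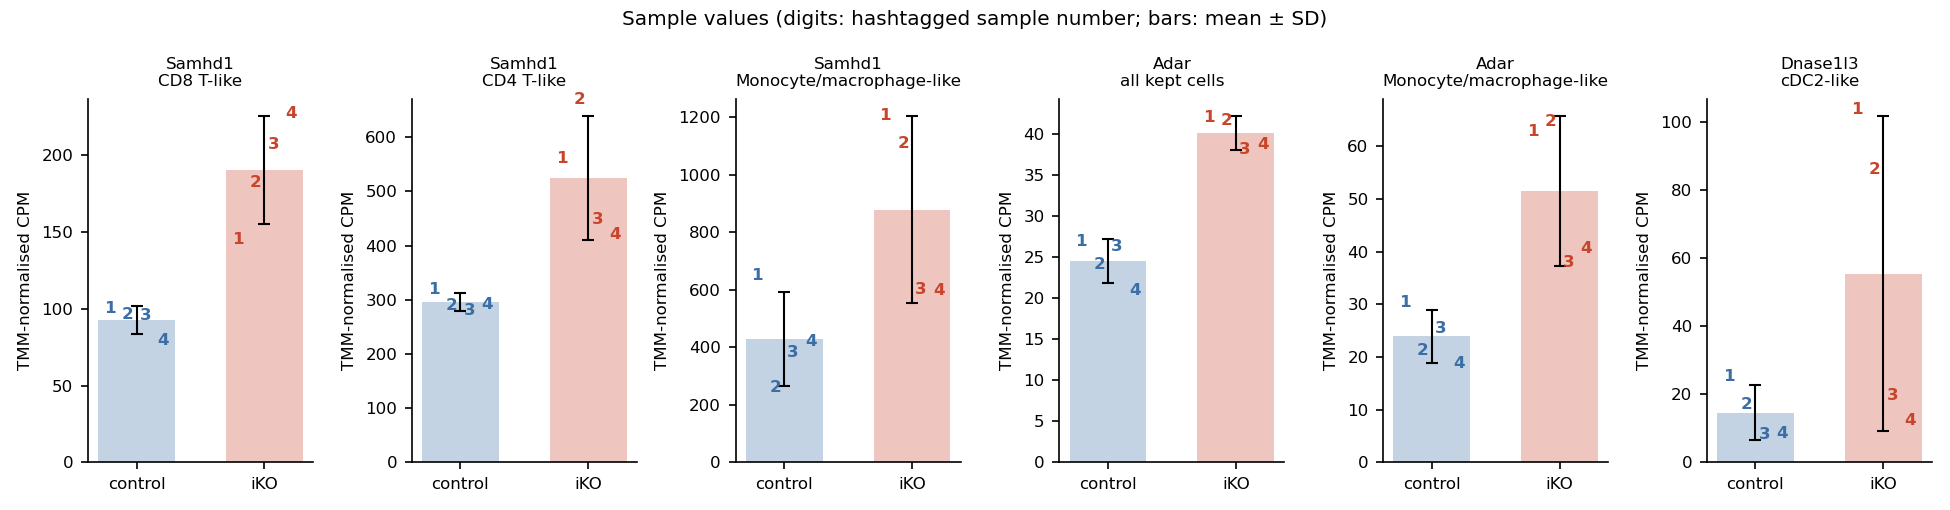
TMM-normalised CPM of members in each sample (digits are the hashtagged sample numbers, bars the mean ± SD of 4 samples, y axes from 0), for control and iKO. Samhd1 in CD8 T-like cells and Adar in whole samples separate the groups, while Dnase1l3 in cDC2-like cells is high in samples 1 and 2 of each genotype.

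The subunits of RNase H2 were not called in any profile. They were tested 21 times by edgeR, with 0 calls and 3 at an unadjusted p under 0.05 (Rnaseh2a in whole samples, Rnaseh2c in CD8 T-like and Rnaseh2b in Treg-like cells), and DESeq2 called 0 of 20. Rnaseh2a in whole samples was at 18.0, 17.8, 16.9 and 18.7 CPM in control samples 1 to 4 and 19.2, 20.0, 20.9 and 20.9 in iKO samples 1 to 4. These groups did not overlap, yet the step was small (log2 fold change 0.18 ± 0.07, edgeR adjusted p = 0.208). Within classes Rnaseh2a ran from -0.41 ± 0.23 in Treg-like to 0.38 ± 0.19 in cDC2-like cells, with -0.01 ± 0.10 in monocyte/macrophage-like and 0.00392 ± 0.11 in CD8 T-like cells. Rnaseh2b ran from -0.46 ± 0.20 in Treg-like cells (adjusted p = 0.303) to 0.14 ± 0.18 in cDC2-like cells, and stood at 0.25 ± 0.17 in whole samples. Rnaseh2c ran from -0.32 ± 0.20 in CD4 T-like to 0.32 ± 0.27 in B-like cells, and in CD8 T-like cells it was at 123 ± 20.9 CPM in control and 150 ± 14.2 CPM in iKO (log2 fold change 0.28 ± 0.13, adjusted p = 0.243). In neutrophil-like and B-like cells Rnaseh2a had 42 and 65 UMIs in all and was too sparse to be tested.

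Dnase2a, the lysosomal DNase, had log2 fold changes between -0.08 and 0.19 in its 8 profiles, with 0 called by edgeR, 0 at an unadjusted p under 0.05 and 0 of 7 called by DESeq2. In monocyte/macrophage-like cells, its main source by level, control samples 1 to 4 were at 57.4, 55.6, 53.6 and 64.7 CPM and iKO samples 1 to 4 at 59.2, 58.3, 71.0 and 75.4. The groups overlapped. Its log2 fold change was 0.19 ± 0.11 (edgeR adjusted p = 0.293).

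Dnase1l3, the secreted DNase, had the largest ratio of highest to lowest sample of any member in cDC2-like and mature DC-like cells, in each genotype. In cDC2-like cells control samples 1 to 4 were at 25.3, 16.9, 8.06 and 8.35 CPM and iKO samples 1 to 4 at 103.8, 86.2, 19.5 and 12.3. Samples 1 and 2 were the high ones in both genotypes. The log2 fold change was 2.08 ± 0.64 (edgeR adjusted p = 0.105), and it passed with the sample number as a block (1.73, adjusted p = 0.00260) and without iKO sample 4 (2.45, 0.0206). Among monocyte/macrophage-like cells control samples were at 8.88, 4.95, 3.14 and 0.878 CPM and iKO samples at 28.9, 21.2, 4.50 and 3.47, again high in samples 1 and 2. Its log2 fold change was 1.83 ± 0.81 (edgeR adjusted p = 0.175, and 0.0167 with the block). In mature DC-like cells, with the highest level of the tested classes, control samples were at 82.7, 73.5, 25.3 and 16.5 CPM and iKO samples at 89.0, 113.4, 32.6 and 25.1. Samples 1 and 2 were again the high ones, and the log2 fold change was 0.49 ± 0.55 (edgeR adjusted p = 0.768, where 0.127% of genes were called and 0 of 7 members, 1 at an unadjusted p under 0.05). The share of CD8 T-like cells among kept cells was also highest in samples 1 and 2 of each genotype, at 21.7%, 12.02%, 7.22% and 3.27% in control and 32.3%, 42.8%, 11.4% and 8.94% in iKO, and its part in these values was not tested.

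Whether the genotype effect differed between classes was tested for 3 pairs. Of the 7 members, 0 were called for CD8 T-like against monocyte/macrophage-like cells (0.337% of genes called), 0 for neutrophil-like (0.00948%) and 0 for B-like cells (0.819%), and 2 of the 21 tests had an unadjusted p under 0.05 in edgeR (Samhd1 in the B-like and Rnaseh2a in the neutrophil-like pair). Dnase1l3 in all 3 pairs, and Rnaseh2a and Rnaseh2b in the neutrophil-like and B-like pairs, were too sparse in 1 of the 2 classes and entered through monocyte/macrophage-like cells, so their tests say nothing of a difference between classes. That leaves 14 tests, of which 1, Samhd1 in the B-like pair, had an unadjusted p under 0.05. The Samhd1 effect in CD8 T-like cells differed from that in monocyte/macrophage-like cells by 0.03 ± 0.37 on the log2 scale, and that in neutrophil-like cells by 0.10 ± 0.32. The Adar effect was smaller in CD8 T-like, neutrophil-like and B-like than in monocyte/macrophage-like cells by 0.51 ± 0.26, 0.47 ± 0.29 and 0.55 ± 0.33 (edgeR adjusted p = 0.373, 0.841 and 0.641). The SEs are wide, so these tests do not show that the classes respond alike. In neutrophil-like (1.44% of genes called) and Treg-like cells (1.21%) the counts of members called by genotype were 0 of 4 and 0 of 6, with 2 and 3 at an unadjusted p under 0.05, and for cDC2-like cells it was 0 of 7 with 3. By DESeq2, 1 of 4 members was called in the neutrophil-like profiles, 0 of 4 in the Treg-like ones and 0 of 7 in the cDC2-like ones.

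The same comparison was made cluster by cluster, as a description. In 19 clusters with at least 3 samples of each genotype, the mean Samhd1 level was higher in iKO in all 19 and the mean Adar level in 19 of 19. How many of all genes show this was not counted. Among the clusters left out were monocyte/macrophage-like clusters 3 and 11, with 1 control sample each, and 19 and 21, with 0. Samhd1 was at 882 CPM in iKO (mean of 4 samples) and 682 CPM in control in cluster 3. In cluster 11 it went the other way, at 1834 and 2604 CPM. Adar was higher in iKO in both, at 58.2 and 30.7 CPM in cluster 3 and 79.5 and 15.2 CPM in cluster 11. Every iKO sample lay above every control sample in 9 of 19 clusters for Samhd1 and 6 of 19 for Adar. For all genes this share was not counted by cluster. In the 7 monocyte/macrophage-like clusters the samples separated in this way in 1 for Samhd1 and 4 for Adar. In the 2 CD8 T-like clusters they did so in 2 and 0. Dnase1l3 was higher by its mean in 16, Dnase2a in 12, Rnaseh2c in 11, Rnaseh2a in 9 and Rnaseh2b in 8 of the 19. The clusters share their samples and are not independent. In monocyte/macrophage-like cluster 6, led by Hp, Chil3 and Ifitm6, Samhd1 was at 1434 CPM in iKO and 978 CPM in control and Adar at 75.5 and 34.6 CPM (means over samples), with no overlap for either gene. In cluster 1 Samhd1 was at 286 and 167 CPM and Adar at 26.4 and 15.8 CPM. There the groups overlapped for both genes, with Samhd1 at 129.9 to 450.6 CPM in iKO and 127.0 to 240.4 CPM in control and Adar at 16.7 to 35.9 and 11.97 to 22.2 CPM.

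**Figure D4:**
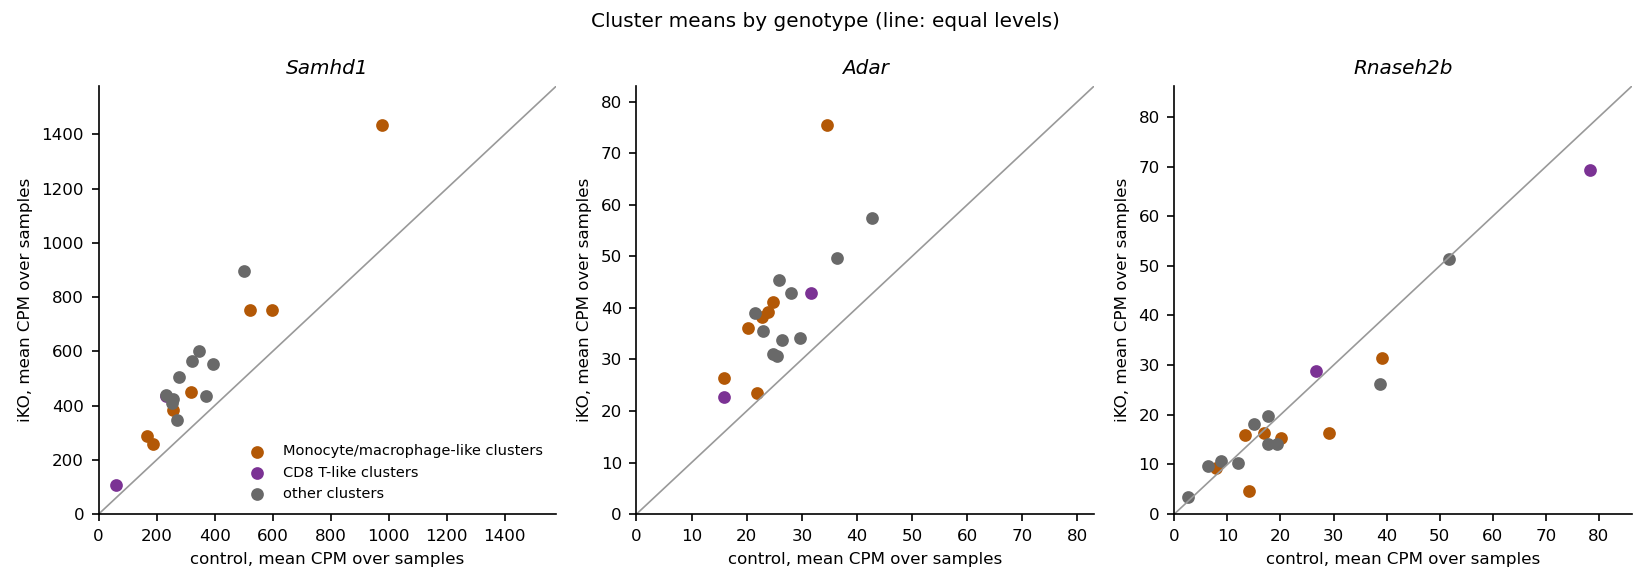
Mean CPM over samples in iKO (y axis) against control (x axis) for each cluster with at least 3 samples per genotype, with the line of equal levels. All 19 clusters lie above the line for Samhd1 and for Adar, and for Rnaseh2b, shown for contrast, 8 of 19 do.

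Because RNase H2 works at replicating DNA and SAMHD1 in resting cells, cycling cells were compared with the other cells of their class, a comparison added after the data were seen. A cell with at least 3 UMIs of 16 cell cycle genes was called cycling, and a deeper cell reaches that number more easily. Of 4943 CD8 T-like cells 3856 were cycling (792 cells had 2 or 3 such UMIs), with median depths of 17626 UMIs against 7183 in the others. Of 8529 monocyte/macrophage-like cells 3736 were (2907 cells had 2 or 3), with 17480 against 12756. In cycling CD8 T-like cells Rnaseh2b was at 52.7 ± 3.60 CPM against 22.8 ± 5.21 in the others, Rnaseh2c at 144 ± 19.4 against 90.6 ± 18.5 and Rnaseh2a at 26.7 ± 3.20 against 17.3 ± 4.03 (SD over 8 samples), each higher in 8 of 8 samples. On the log2(CPM + 10) scale these differences were 0.95, 0.63 and 0.44 (exact sign-flip permutation test, adjusted over 49 tests, p = 0.0383 each). Samhd1 went the other way, at 117 ± 47.0 CPM in cycling and 255 ± 96.2 CPM in other CD8 T-like cells, lower in 8 of 8 samples (-1.06, adjusted p = 0.0383). Adar and Dnase2a were also lower in cycling CD8 T-like cells, by 0.50 and 0.48 (7 of 8 samples each, adjusted p = 0.0479).

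Treg-like cells, with 7 samples, showed the same 4 directions past the threshold: Rnaseh2b differed by 1.36, Rnaseh2c by 0.79, Rnaseh2a by 0.76 and Samhd1 by -0.79 (7 of 7 samples each, exact permutation test, adjusted p = 0.0479). The monocyte/macrophage-like differences were 0.41 for Rnaseh2b, 0.28 for Dnase2a, 0.22 for Rnaseh2a and -0.37 for Samhd1 (8 of 8 samples each, adjusted p = 0.0383), and Rnaseh2c (0.05) and Adar (-0.13) did not pass (adjusted p = 0.521 and 0.0676). In cDC2-like cells Rnaseh2b (0.75) and Rnaseh2c (0.33) passed (8 of 8 samples, adjusted p = 0.0383). In mature DC-like cells (6 samples) no member could pass, since the smallest p of this permutation test, 0.031, stays above 0.05 after the adjustment. CD4 T-like (5 samples) and neutrophil-like cells (4 samples) could not reach 0.05 in this test even before it. When each cell was first thinned to 3000 UMIs and cells with at least 3 cycle UMIs were set against cells with 0, Rnaseh2b (1.52) and Rnaseh2c (1.00) held in CD8 T-like cells (8 of 8 samples, adjusted p = 0.0273) and so did Adar (-0.78, adjusted p = 0.0469), while Samhd1 (-0.28, adjusted p = 0.570), Rnaseh2a (0.60, 0.123) and Dnase2a (-0.35, 0.231) did not. Once monocyte/macrophage-like cells were thinned in this way, Samhd1 (-1.08, adjusted p = 0.0273), Rnaseh2b (0.99, 0.0273), Rnaseh2a (0.56, 0.0437) and Rnaseh2c (0.47, 0.0469) passed and Dnase2a (0.28, 0.346) did not. These fits change both the depth and the cells compared. In them Samhd1 in CD8 T-like cells was at 143 ± 62.8 CPM in cycling cells and 208 ± 114 CPM in cells with 0 cycle UMIs, lower in 7 of 8 samples, and whether the classes differ was not tested.

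**Figure D5:**
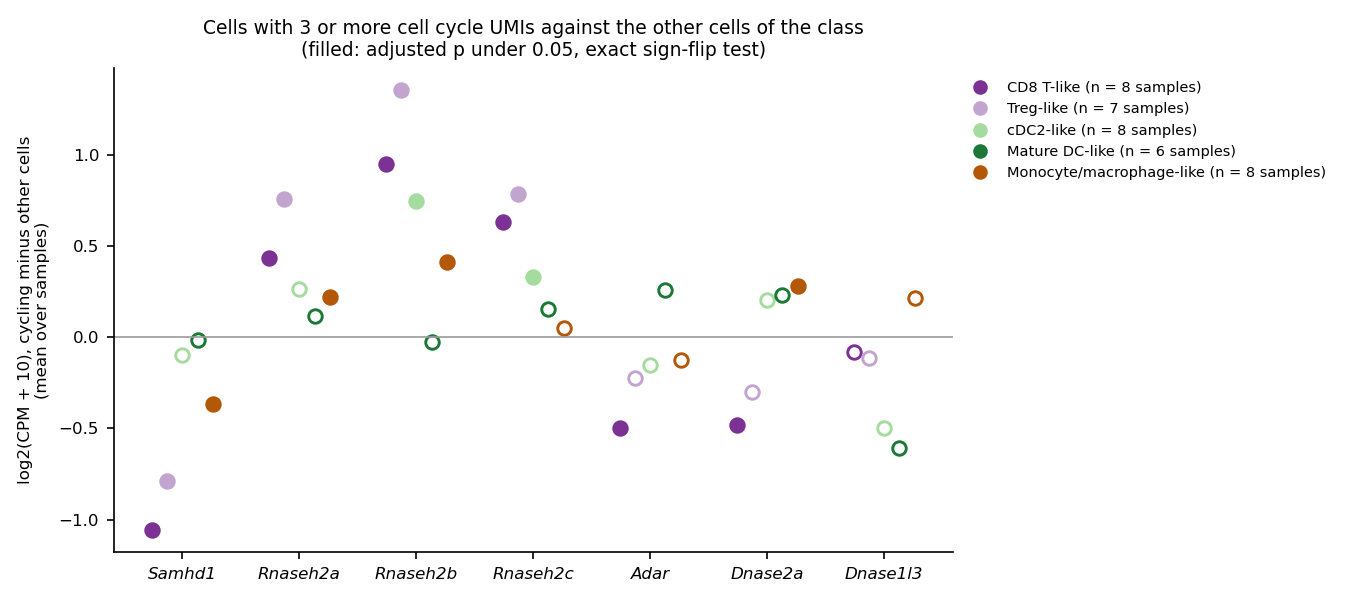
Difference in log2(CPM + 10) between cycling and other cells of a class, mean over samples, for each enzyme (x axis) and class (colours). Filled points passed an adjusted p of 0.05 in the exact sign-flip test: the RNase H2 subunits lie above 0 in CD8 T-like and Treg-like cells and Samhd1 below it. Mature DC-like cells (6 samples) could not pass after the adjustment.

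Genes with the most similar pattern were taken over 79 profiles of class by sample, among 10240 genes, by Pearson's r of log2(CPM + 10). These are descriptions, since the profiles share libraries and depths. For Samhd1 they were Slfn5 (0.789), Gbp2 (0.747) and Isg15 (0.736), and for Adar Irf9 (0.686), Trim30a (0.665) and H2-T24 (0.663), all known as interferon-responsive genes or, for H2-T24, a class Ib MHC gene. For Rnaseh2b they were Tubb5 (0.849), Mrpl13 (0.836) and Ezh2 (0.834), for Rnaseh2a Eif3l (0.764), Pa2g4 (0.757) and Etfb (0.753), and for Rnaseh2c I730030J21Rik (0.815), Hmgn5 (0.803) and Metrn (0.796). For Dnase2a they were Lmo2 (0.775), Blvrb (0.773) and Fcgr2b (0.740), and for Dnase1l3 Tnni2 (0.864), Erlin1 (0.843) and Flt3 (0.841), a receptor of dendritic cells and their precursors.

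Other enzymes that act on nucleic acids gave a mixed picture, with the background shares given above. Of 20 tested genes of other nucleases, edgeR called 1 higher and 1 lower in whole samples, 3 and 3 in monocyte/macrophage-like cells, and 0 and 2 in CD8 T-like cells (8, 10 and 5 at an unadjusted p under 0.05, and 2 of 21, 7 of 20 and 1 of 21 called by DESeq2), with medians of 0.13, 0.09 and -0.05 (log2) against -0.01, -0.01 and -0.02 over all genes. Pnpt1, a mitochondrial RNA exonuclease, rose from 14.6 ± 2.03 to 24.3 ± 3.59 CPM in whole samples (log2 fold change 0.73 ± 0.14, edgeR adjusted p = 0.0361) and by 0.99 ± 0.21 in monocyte/macrophage-like cells (0.0259). Rnaset2a, a lysosomal RNase, fell by 0.56 ± 0.08 in whole samples (0.00965), by 0.67 ± 0.12 in monocyte/macrophage-like cells (0.0167) and by 0.50 ± 0.10 in CD8 T-like cells (0.0189). Its near-identical copy Rnaset2b fell by 0.66 ± 0.13 and 0.36 ± 0.09 in the 2 classes (0.0210 and 0.0389), and reads could be split between the copies, so the share of each is uncertain. In monocyte/macrophage-like cells the mitochondrial nuclease gene Endog also fell (-0.64 ± 0.16, 0.0395), and Pld4, an endolysosomal exonuclease (0.53 ± 0.14, 0.0419), and Skiv2l, an RNA helicase of the exosome (0.47 ± 0.11, 0.0351), rose. Among the other RNA and DNA editors, edgeR called 0 of 5 in whole samples and 0 of 3 in CD8 T-like cells (3 and 0 at an unadjusted p under 0.05, and 0 of 6 and 0 of 5 called by DESeq2). It called 1 of 4 in monocyte/macrophage-like cells (DESeq2 3 of 5), Apobec1 (0.49 ± 0.13, edgeR adjusted p = 0.0486). Medians of this list were -0.03, 0.19 and 0.13.

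Genes of dNTP metabolism act in the pathways that make or break down dNTPs, the substrates of SAMHD1. Of 18 tested, edgeR called 4 higher and 0 lower in whole samples (median 0.49, 6 at an unadjusted p under 0.05, 4 by DESeq2): Cmpk2 (1.89 ± 0.40, edgeR adjusted p = 0.0482), Dck (1.08 ± 0.12, 0.00364), Pnp (1.01 ± 0.14, 0.00965) and Nt5c3 (0.99 ± 0.20, 0.0409). Dck is the salvage kinase of deoxycytidine, Pnp the purine nucleoside phosphorylase and Cmpk2 a mitochondrial nucleotide kinase induced by interferon. The count was 3 of 18 higher in monocyte/macrophage-like cells (median 0.08), among them Dck, from 36.4 ± 6.95 to 110.9 ± 39.7 CPM (1.61 ± 0.25, 0.0116). In CD8 T-like cells 2 of 18 were (median 0.20), Cmpk2 (1.87 ± 0.30, 0.00508) and Nt5c3 (0.72 ± 0.13, 0.00849), and 0 were lower in either class.

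Sensors of nucleic acids and genes of the type I interferon response were counted in the same profiles. Of 12 sensors tested in whole samples 8 were called higher (median 0.95), 9 of 12 in monocyte/macrophage-like (median 1.25) and 5 of 9 in CD8 T-like cells (median 0.73), with 0 lower. Zbp1, a sensor of Z-form nucleic acid, was at 99.3 ± 16.4 CPM in control and 316 ± 96.8 CPM in iKO in whole samples (1.67 ± 0.22, edgeR adjusted p = 0.00826), and Ifih1, which encodes MDA5, at 30.6 ± 3.88 and 90.0 ± 20.1 CPM (1.56 ± 0.17, 0.00359). Of 15 type I interferon response genes 13 were called higher in whole samples (median 1.66), 15 in CD8 T-like (median 2.08) and 13 in monocyte/macrophage-like cells (median 2.01), with 0 lower. Irf7 rose by 2.73 ± 0.21 in whole samples (0.000739). In mature DC-like cells 0 of 8 sensors and 1 of 15 interferon response genes were called, with medians of 1.09 and 1.91. In whole samples the log2 fold changes of Samhd1 and Adar, 0.79 and 0.71, lay below the medians of both lists there (0.95 and 1.66). Of 16 cell cycle genes edgeR called 0 in whole samples (median 0.85, 5 at an unadjusted p under 0.05) and 0 in monocyte/macrophage-like cells (median -0.08, 0 at an unadjusted p under 0.05), and DESeq2 called 0 in both. In CD8 T-like cells 3 were called (median 0.43), Cdk1 (0.73 ± 0.18, 0.0356), Ccna2 (0.56 ± 0.14, 0.0465) and Birc5 (0.55 ± 0.13, 0.0304), each higher in iKO.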

How the data were processed

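Single-cell mRNA was measured in leukocytes of B16-F10 tumours from 8 hashtagged samples, 4 per genotype. UMI counts are whole numbers in 1 deposited matrix per hashtag (genes by barcodes), written by the authors with Cell Ranger 7.1.0 on GRCm39, per the file headers and the submitters' processing notes. For the intron setting and the hashtag rule nothing is given in the sources used here. Barcodes were kept with at least 300 genes and at most 10% mitochondrial UMIs, and cells with a Scrublet score over 0.25 were removed as doublets (439 cells, 1.95% of those scored). This left 22051 of 23731 barcodes. The 2000 most variable genes, 30 principal components and 20 neighbours entered Leiden clustering (scanpy 1.11.5, leidenalg 0.10.2, resolution 2), with the 7 enzymes and the gene lists kept out. Each of the 32 clusters was named "X-like" from marker genes or left unnamed, so the class names are rebuilt ones. Resolution, doublet score and thresholds for naming were chosen after seeing the data.

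UMI counts were summed per sample and class (at least 20 cells) and tested with edgeR 4.0.16 in R 4.3.3 (TMM, filterByExpr, quasi-likelihood test, Benjamini-Hochberg adjustment over all genes of a profile, threshold 0.05). A class was tested where each genotype kept at least 3 samples. Classes were compared within samples by an exact two-sided sign-flip permutation test of log2(CPM + 10), adjusted over all 252 comparisons, with scipy 1.17.1. Alternatives were DESeq2 1.42.0, other size factors, no low-count filter, other cell filters, a replicate block, cells thinned to 3000 UMIs, profiles without cycling cells, resolution 1, a pseudocount of 1 and leaving out each sample. A cell was called cycling with at least 3 UMIs of 16 cell cycle genes, and the comparison of cycling with other cells was added after the data were seen.

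The main fits paired no samples, and the sample number entered as a block only in an alternative fit. Deviations from the group means correlated between samples of the same number at r = 0.503, 0.236, 0.146 and 0.530 for numbers 1 to 4. However, iKO sample 2 correlated best with control sample 1 (0.582) and iKO sample 3 with control sample 4 (0.350). Nothing in the labels ties a number to a litter or day, so it is not established that the numbers pair the samples.

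All 7 enzymes are named with their values. Of the fixed lists, up to 6 genes a list called in whole samples, monocyte/macrophage-like or CD8 T-like profiles are named by size of change, and for each enzyme the 3 genes most like it. The members and the lists were chosen with earlier results of these data known. Promoter windows are from RefSeq (GRCm38.p6), another build than that of the files, and 5 of the 7 enzymes matched. Intervals on shares of cells are 95% exact (Clopper-Pearson) and cover counting error only, and the limit for a share of 0 is 3 counts of the total. Hashtag and spike-in features were left out of all totals.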

Additional observations from a re-analysis of the deposited data

Results flagged for a closer look

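Among 102 groups of 4 samples (gene, profile and genotype), 6 held a sample far from the other 3, at a rate of about the 1 in 20 that chance gives. The value and the nearest other sample are TMM-normalised CPM. Adar in mature DC-like cells of iKO sample 4 was at 28.8 CPM, with the nearest of the others at 36.8. Dnase2a in B-like cells of control sample 1 was at 18.6, with the nearest at 67.3. Control sample 4 had Rnaseh2a in monocyte/macrophage-like cells at 20.6, with the nearest at 19.0, and control sample 2 had it in Treg-like cells at 33.2, with the nearest at 23.7. Rnaseh2c in Treg-like cells of iKO sample 3 was at 132, with the nearest at 123, and in cDC2-like cells of control sample 1 at 81.1, with the nearest at 71.8. None of these 6 values belongs to a difference called between the genotypes.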

How the results depend on the processing

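Samhd1 and Adar in whole samples were called under all alternatives with all 8 samples, and 1 to 2 members were called when each sample was left out. Within classes 4 calls became 11 without the low-count filter, 10 with the replicate block and 7 with cells thinned to 3000 UMIs, and 2 to 5 when each sample was left out (2 without iKO sample 2, control sample 2 or control sample 4). Besides the calls named in the results, the blocked fit changed no other call of a member. The interactions gave 0 calls, 1 without the filter and 0 to 1 with a sample left out. Class differences past the threshold were 98, and 97 with a pseudocount of 1. The 7 calls with thinned cells were Samhd1 in CD4 T-like, CD8 T-like, monocyte/macrophage-like, Treg-like and cDC2-like cells and Adar in monocyte/macrophage-like and cDC2-like cells. Further calls without the filter were Samhd1 in Treg-like (adjusted p 0.000367), neutrophil-like (0.00134), cDC2-like (0.0301) and monocyte/macrophage-like cells (0.0394), Adar in Treg-like (0.0257) and cDC2-like cells (0.0314) and Dnase1l3 in cDC2-like cells (0.0128).

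Changes of sign touched uncalled members only. Dnase2a in B-like cells was at 0.0289 in DESeq2, 0.0924 with the block, 0.00927 without cycling cells and 0.0254 at resolution 1. Dnase2a in CD8 T-like cells was at -0.0306 with the block, -0.17 without cycling cells, -0.45 thinned and -0.14 at resolution 1. Without cycling cells the log2 fold change was -0.21 for Rnaseh2a and -0.39 for Rnaseh2b in CD8 T-like, 0.00149 for Rnaseh2a in monocyte/macrophage-like, 0.00265 for Dnase2a in neutrophil-like, 0.12 for Rnaseh2c in Treg-like and -0.10 for Rnaseh2a in cDC2-like cells. Rnaseh2b in mature DC-like cells was at -0.0193 with the block and -0.32 thinned, Rnaseh2c in Treg-like cells at 0.10 thinned and Dnase2a in cDC2-like cells at -0.0132 thinned. Rnaseh2a in monocyte/macrophage-like cells was at 0.0281 without the filter and 0.0161 at resolution 1, and Rnaseh2b in cDC2-like cells at -0.0337 at resolution 1. The Samhd1 effect of CD8 T-like minus monocyte/macrophage-like cells was -0.00729 without the filter.

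With each sample left out, Dnase2a ran from -0.0278 to 0.34 in whole samples, -0.20 to 0.11 in B-like, -0.0793 to 0.18 in CD8 T-like, -0.16 to 0.0726 in mature DC-like, -0.24 to 0.16 in neutrophil-like and -0.0835 to 0.29 in Treg-like cells. Rnaseh2a ran from -0.0610 to 0.0473 in CD8 T-like, -0.15 to 0.25 in mature DC-like and -0.0581 to 0.0537 in monocyte/macrophage-like cells. Rnaseh2b ran from -0.0617 to 0.13 in CD8 T-like and -0.21 to 0.13 in mature DC-like cells. Rnaseh2c ran from -0.0694 to 0.18 in monocyte/macrophage-like and -0.19 to 0.15 in Treg-like cells. The Samhd1 effect against monocyte/macrophage-like cells ran from -0.22 to 0.32 in CD8 T-like and -0.20 to 0.33 in neutrophil-like cells. The causes were not tested.

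Genes called moved by over 1.5 times in whole samples (348, with DESeq2 1275, the block 683, without cycling cells 1082, thinned 729, and 110 to 490 with a sample left out, with 133 and 154 without iKO samples 1 and 2 and 110 and 159 without control samples 2 and 3), CD8 T-like (520, without cycling cells 160, thinned 196, resolution 1 337, and 233 to 574, with 233 without iKO sample 2 and 252, 287 and 323 without control samples 2, 3 and 4) and monocyte/macrophage-like cells (1063, DESeq2 1863, without cycling cells 1678, and 216 to 1548, with 265 and 216 without iKO samples 1 and 2 and 221, 444 and 276 without control samples 2, 3 and 4). They moved as well in mature DC-like (9, without the filter 207, DESeq2 102, the block 37, thinned 25, resolution 1 15, without cycling cells 14, and 0 to 47), neutrophil-like (98, 358 without the filter, DESeq2 164, and 54 to 118), Treg-like (96, 397 without the filter, DESeq2 188, the block 159, thinned 169, and 9 to 323), cDC2-like (268, 583 without the filter, DESeq2 415, the block 476, and 77 to 515) and B-like cells (108, 164 without the filter), and in CD4 T-like cells with control sample 2 left out (167 to 105). Depth limits Rnaseh2a, Rnaseh2b and Dnase1l3 most, which had too few UMIs to be tested in B-like, CD4 T-like and neutrophil-like cells.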
